A study of Mus musculus with 16 samples.

Results

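The genes described here are the ligands and receptors of the tumour necrosis factor (TNF) superfamilies, chosen by name: every gene whose symbol in the platform annotation starts with Tnfsf or Tnfrsf, together with Tnf, Lta, Ltb, Ltbr, Cd40, Cd40lg, Cd27, Cd70, Fas and Fasl. The rule found 38 of the 19505 genes tested, 15 ligands and 23 receptors, each with 1 probe set. Of the symbols named singly, Cd27 was not listed and is not analysed here, and neither are Tnfsf12 and Tnfsf13. The study profiled liver RNA of C57BL/6 mice on 1-colour Affymetrix-type arrays, in 8 samples of a nonalcoholic steatohepatitis (NASH) model and 8 Control samples. In NASH, fat-laden liver becomes inflamed. The labels describe all 16 samples as liver biopsies; how the model was induced, age, sex, time of collection and batch are not given in the sources used here. Soluble guanylate cyclase stimulation is named in the title, but no treated group is among these samples, so the only comparison is between diseased and Control liver.

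Ligands of this family are mostly trimeric membrane proteins, several of which are shed as soluble cytokines, and each binds 1 or a few receptors on neighbouring cells. Receptors with a death domain, such as those for TNF, Fas ligand and TRAIL, can start apoptosis or necroptosis, while most others recruit TRAF adaptors and activate NF-kB. In the liver TNF comes largely from macrophages, hepatocytes carry death receptors, and the receptor of the cytokine TWEAK is known for its induction in liver injury and in progenitor cell expansion.

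Values are log2 intensities per probe set, and a difference is NASH model minus Control on that scale. Probe sets differ in brightness for the same amount of RNA, so levels of single genes were compared between groups and never between genes. For marker lists a summed level is also given, the log2 of the added unlogged intensities of a list's genes in each sample. Such a sum is ruled by the brightest probe sets of the list. Calls were made in a limma fit over all 19505 genes, at an adjusted p (Benjamini-Hochberg) under 0.05. The floor is 2.89, the level that 95% of the values of 1412 odorant and pheromone receptor genes did not exceed, and a value under it cannot be told from background. A difference from a group with some values under the floor is therefore partly a difference from background, and for the called members and pathway genes the number of samples above the floor is then given. Hepatocyte markers were high in all samples: Alb, Apoa1, Ttr, Serpina1a and Cyp2e1 had mean levels from 11.9 to 12.6 in both groups, while the hepatocyte factor Hnf4a fell by 0.66. In liver biopsies fewer cells of a type and less RNA per cell cannot be told apart.

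Tnf, the ligand that names the family, and Tnfrsf12a, the TWEAK receptor Fn14, were the members that rose with no overlap between the groups. In all, 8 members rose, 2 fell and 28 did not pass. The share called was 26.3%, against 26.6% of all genes tested (13.2% higher and 13.4% lower), close to the background, so the count of calls is no result about the family. By direction, 21.1% of the members were higher and 5.26% were lower. The share called with groups that did not overlap was 5.26%, against 9.53% of all genes (5.64% higher and 3.89% lower). The median difference of the 38 members was 0.11, and that of all genes was -0.04. When arrays were instead centred on their spike-in controls, 12 members were higher and 0 lower, so the balance of directions depends on the scaling.

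**Figure D1:**
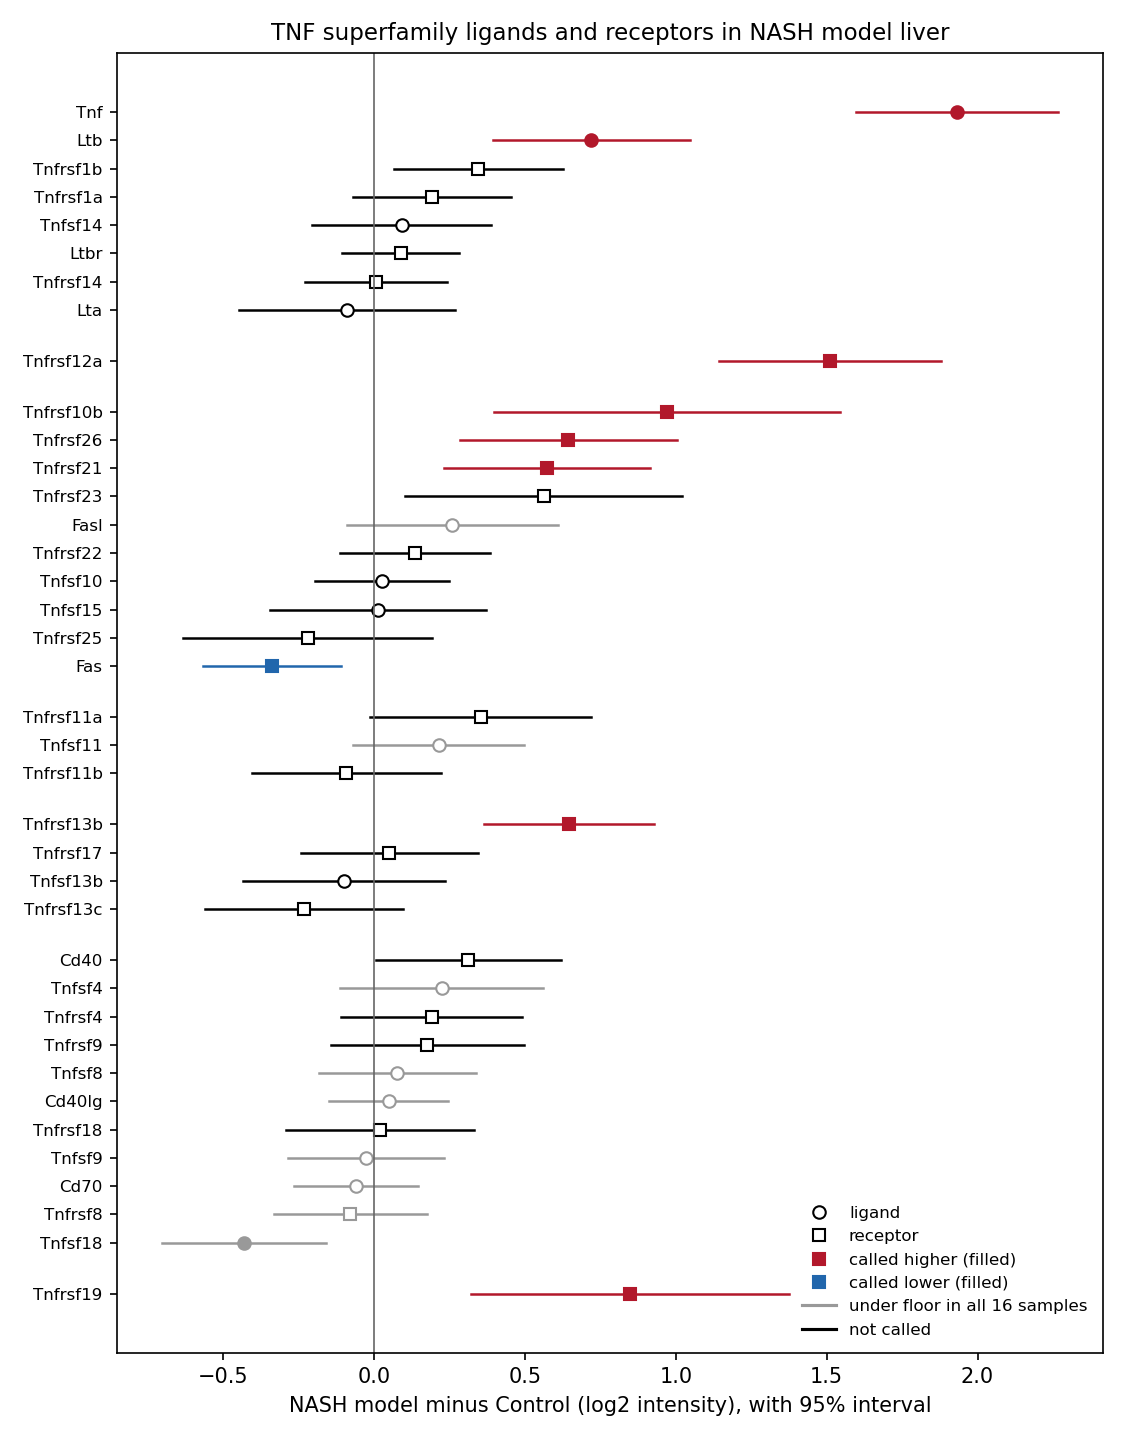
Difference of each of the 38 members between 8 NASH model and 8 Control samples (log2 intensity, x axis) with its 95% interval, grouped by role from the TNF and lymphotoxin genes at the top to Tnfrsf19 at the bottom. Filled symbols passed the test, grey marks members under the floor in all 16 samples, and Tnfrsf12a lies at 1.51; the point of Tnf is drawn at its measured difference, although all its Control values are background.

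Many members lay close to background. In 9 of the 38 all 16 samples were under the floor, 8 of them ligands (Cd40lg, Cd70, Fasl, Tnfsf4, Tnfsf8, Tnfsf9, Tnfsf11, Tnfsf18) and 1 a receptor (Tnfrsf8). In 17 members all 16 samples were above it, 14 receptors and 3 ligands. The receptors were thus the better measured side of the family. For the ligands under the floor in all 16 samples, any value given below is background in both groups.

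Tnf, the main inflammatory cytokine of macrophages, was above the floor in 8 of 8 NASH model samples and in 0 of 8 Control samples. Its lowest, median and highest values were 3.61, 3.87 and 4.22 in the NASH model and 1.48, 1.79 and 2.57 in the Control group. Every NASH model sample lay above the highest Control sample, Control 4. Tnf averaged 3.90 ± 0.22 in the NASH model and 1.97 ± 0.43 in the Control group (SD, n = 8 each), and limma gave adjusted p = 2.4e-08. Since the Control mean is background, the rise is given as at least 2.01-fold.

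Ltb, which encodes lymphotoxin beta, the membrane anchor of the lymphotoxin heterotrimer, rose as well. Its lowest, median and highest values were 2.59, 3.32 and 3.70 in the NASH model, against 2.18, 2.49 and 3.13 in the Control group. Of the NASH model samples 6 lay above all Control samples, and NASH model 1b was the lowest. The difference was 0.72 ± 0.16 SE (limma adjusted p = 0.0015), with 7 of 8 NASH model and 1 of 8 Control samples above the floor. Lta, whose product can act alone or with lymphotoxin beta, gave 2.88, 3.47 and 3.86 in the NASH model, against 2.84, 3.44 and 4.14 in the Control group. These ranges overlapped almost wholly, and the difference of -0.09 did not pass, with a 95% interval from -0.45 to 0.27.

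Ltb, Tnf and Lta are direct neighbours on chromosome 17 in the RefSeq annotation of GRCm38.p6, with 0 other coding genes between them, and Tnfrsf12a lies on the same chromosome. The promoters of 3 called genes are shown because they belong to the clearest rise (Tnf), its called neighbour (Ltb) and the clearest receptor (Tnfrsf12a). Each is the strand of the gene from 250 bases before to 50 bases after its start, from RefSeq. Capitals mark matches, on either strand, to a TATA box (TATAAA), the AP-1 motif (TGANTCA) or the NF-kB consensus.
Tnf, chr17:35201958-35202257, minus strand: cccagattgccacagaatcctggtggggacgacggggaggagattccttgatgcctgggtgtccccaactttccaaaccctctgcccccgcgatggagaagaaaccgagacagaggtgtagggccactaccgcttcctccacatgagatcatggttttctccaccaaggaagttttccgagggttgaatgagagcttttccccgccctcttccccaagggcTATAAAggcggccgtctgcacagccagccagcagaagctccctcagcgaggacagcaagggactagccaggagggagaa
Ltb, chr17:35194257-35194556, plus strand: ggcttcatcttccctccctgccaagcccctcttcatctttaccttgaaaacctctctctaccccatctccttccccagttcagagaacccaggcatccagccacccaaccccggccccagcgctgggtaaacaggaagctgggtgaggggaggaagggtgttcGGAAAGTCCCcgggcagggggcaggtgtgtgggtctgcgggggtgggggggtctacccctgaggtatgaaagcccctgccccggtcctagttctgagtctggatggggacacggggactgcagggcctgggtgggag
Tnfrsf12a, chr17:23677400-23677699, minus strand: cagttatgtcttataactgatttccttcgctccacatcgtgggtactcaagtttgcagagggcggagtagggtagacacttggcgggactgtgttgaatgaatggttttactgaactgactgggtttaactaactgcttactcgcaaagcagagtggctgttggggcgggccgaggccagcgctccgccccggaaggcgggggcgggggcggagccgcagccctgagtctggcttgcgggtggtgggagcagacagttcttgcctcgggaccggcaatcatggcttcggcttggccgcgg
In Tnf the capitals are a TATA box that begins 29 bases before the start, and in Ltb an NF-kB match that begins 87 bases before it. The Tnfrsf12a window held none of the 3 motifs. RefSeq promoters were found for 29 members in 33 windows. An NF-kB match stood in 4 of the 33, against 8.46% of all 32851 windows, an AP-1 match in 6, against 7.81%, and a TATA box in 6, against 13.6%. Ltb was the 1 called member among the 4 with an NF-kB match, the others being Tnfrsf8, Tnfrsf9 and Tnfrsf25.

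Receptors of TNF and the lymphotoxins did not pass the test, whereas the ligand Tnf did. Tnfrsf1a, the death-domain receptor that most cell types carry, had 7.37, 7.61 and 7.77 (lowest, median and highest) in the NASH model, against 6.84, 7.43 and 7.91 in the Control group. All 8 NASH model values fell inside the Control range, and the difference of 0.19 (95% interval -0.07 to 0.46) gave limma adjusted p = 0.29. Tnfrsf1b, the second TNF receptor, found mainly on immune and endothelial cells, had 6.84, 7.19 and 7.38 in the NASH model, against 6.19, 6.92 and 7.30 in the Control group. The NASH model values clustered at the upper end of the Control range, and 3 of 8 exceeded it. Its difference of 0.35 (interval 0.07 to 0.63) missed the threshold at adjusted p = 0.063 in limma, and passed under 7 of 28 alternatives, among them without Control 1 (0.42, adjusted p = 0.021), without NASH model 7 (0.39, 0.043) and with spike-in centring (0.45, 0.019). Ltbr, the lymphotoxin beta receptor, was at 8.13, 8.31 and 8.56 in the NASH model, against 8.00, 8.25 and 8.56 in the Control group, a difference of 0.09 (interval -0.10 to 0.28). The ligand Tnfsf14, also called LIGHT, and its receptor Tnfrsf14 differed by 0.09 and 0.01, with limma adjusted p of 0.70 and 0.98.

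**Figure D2:**
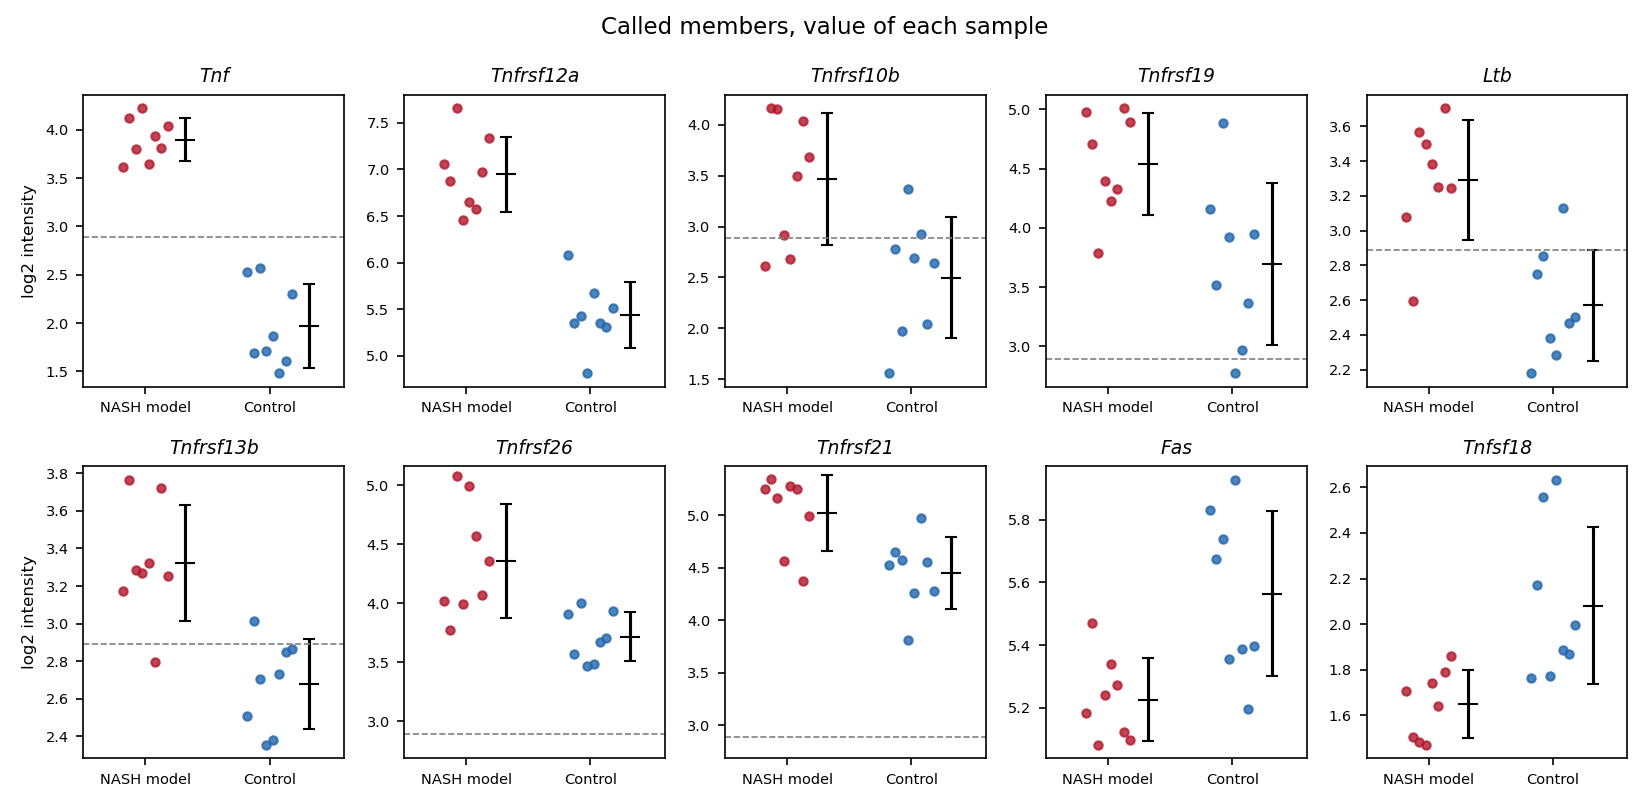
Log2 intensity of the 10 called members in each NASH model sample (red, left) and each Control sample (blue, right), with the mean and SD at the right of each group and the floor of 2.89 as a dashed line where the axis reaches it. The groups are apart in Tnf and Tnfrsf12a and overlap in the other 8, and all values of Tnfsf18 lie below the floor.

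Tnfrsf12a, which binds TWEAK and signals through TRAF adaptors without a death domain, was the receptor with the highest difference. Its lowest, median and highest values were 6.45, 6.93 and 7.66 in the NASH model and 4.81, 5.39 and 6.08 in the Control group. Every NASH model sample lay above every Control sample, with NASH model 2 the highest and Control 1 the nearest below. It averaged 6.95 ± 0.40 in the NASH model and 5.44 ± 0.36 in the Control group (SD, n = 8 each), a 2.85-fold rise (difference 1.51 ± 0.18 SE, limma adjusted p = 1.9e-06). Tnf and Tnfrsf12a passed under every alternative that tested them, and an exact permutation test over samples gave both the smallest p it can give (two-sided, 0.00016). With each sample left out in turn the difference of Tnfrsf12a ran from 1.41 to 1.6.

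Among the death receptors, Tnfrsf10b, the mouse receptor of TRAIL, rose but varied most of all members within the NASH model (SD 0.65). Its lowest, median and highest values were 2.61, 3.59 and 4.16 in the NASH model, against 1.56, 2.67 and 3.37 in the Control group. The lowest and the highest NASH model values came from 1a and 1b, which share a number in the labels. The floor was passed by 6 of 8 NASH model and 2 of 8 Control samples. The difference was 0.97 ± 0.27 SE (limma adjusted p = 0.012), and the call was lost without NASH model 2 and 7 (0.82, adjusted p = 0.059). Its ligand Tnfsf10, TRAIL, was at 4.84, 5.15 and 5.39 in the NASH model and 4.69, 5.14 and 5.30 in the Control group. The 2 groups lay on top of each other, and the interval of the difference ran from -0.20 to 0.25.

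Tnfrsf22, Tnfrsf23 and Tnfrsf26 are mouse receptors encoded side by side on chromosome 7, the first 2 being decoy receptors for TRAIL that carry no death domain. Of the 3, Tnfrsf26 passed. Its lowest, median and highest values were 3.78, 4.21 and 5.08 in the NASH model, against 3.47, 3.69 and 4.0 in the Control group, and the difference was 0.64 ± 0.17 SE (limma adjusted p = 0.0080). In Tnfrsf26, 6 of 8 NASH model samples lay above all Control samples. Tnfrsf23 was above the floor in 8 of 8 NASH model and 1 of 8 Control samples, but that sample, Control 4, was the highest of all 16 at 4.24, and the difference of 0.56 missed the threshold (limma adjusted p = 0.065). Without Control 4 it was 0.75 and passed (adjusted p = 0.0012). In all, Tnfrsf23 passed under 4 of 27 alternatives. The others were spike-in centring (0.68, limma adjusted p = 0.030), array weights (0.59, 0.041) and the replicate block (0.45, 0.034). Tnfrsf22 differed by 0.14 and did not pass. The 3 genes are close relatives, so their probe sets may cross-hybridise and the split of signal between them is less certain.

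Tnfrsf21, death receptor 6, rose by 0.57 ± 0.16 SE (limma adjusted p = 0.012), with lowest, median and highest values of 4.38, 5.20 and 5.34 in the NASH model, against 3.81, 4.54 and 4.98 in the Control group. In Tnfrsf21 6 of 8 NASH model samples lay above all Control samples, while NASH model 3 and 6 lay within their range. Fas went the other way. This receptor of Fas ligand, through which T cells can kill hepatocytes, had 5.08, 5.21 and 5.47 in the NASH model, against 5.20, 5.54 and 5.93 in the Control group. The ranges overlapped, with 4 of 8 NASH model samples below all Control samples, and the fall by 0.34 (SE 0.11) gave limma adjusted p = 0.027. It did not pass with values as deposited (-0.22, adjusted p = 0.15), with cyclic loess (-0.27, 0.081) or with spike-in centring (-0.12, 0.55), nor without Control 1 (-0.30, 0.056), Control 6 (-0.29, 0.057) or NASH model 2 (-0.32, 0.052). Fasl was under the floor in all 16 samples. Tnfrsf25 and Tnfsf15, the pair known as DR3 and TL1A, differed by -0.22 and 0.01, and neither passed. Tnfsf15 was under the floor in 1 of 8 NASH model and 5 of 8 Control samples.

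Among the B cell genes the receptor TACI, encoded by Tnfrsf13b, rose while its ligand Tnfsf13b did not pass. Tnfsf13, which also binds TACI, was not analysed. Tnfrsf13b had 2.79, 3.28 and 3.77 in the NASH model, against 2.36, 2.72 and 3.01 in the Control group. It exceeded the floor in 7 of 8 NASH model and 1 of 8 Control samples, and 7 of 8 NASH model samples lay above all Control samples. The difference was 0.65 ± 0.13 SE (limma adjusted p = 0.0011). Tnfsf13b, the B cell survival factor BAFF, had 2.93, 3.73 and 4.0 in the NASH model, against 3.28, 3.74 and 4.29 in the Control group, and differed by -0.10 (95% interval -0.44 to 0.23). The other BAFF receptors did not pass either: Tnfrsf13c differed by -0.23 and Tnfrsf17, the plasma cell receptor BCMA, by 0.05, and Tnfrsf17 was under the floor in 8 of 8 NASH model and 7 of 8 Control samples. Tnfrsf13c was called lower without Control 10 (-0.35, limma adjusted p = 0.045). Of 5 measured B and plasma cell markers 1 rose (20%, beside 13.2% of all genes), the immunoglobulin joining chain Jchain (0.91). The summed level of the list ran from 5.82 to 6.30 in the NASH model and from 5.34 to 6.00 in the Control group. The part of cell numbers in the rise of Tnfrsf13b was not tested.

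Costimulatory members, which pass signals between antigen-presenting cells and T cells, gave 0 rises and 1 fall (9.09%) among 11 genes. Of all genes 13.2% were higher and 13.4% lower. Cd40, the receptor that T cells use to activate macrophages and B cells, had 3.38, 3.89 and 4.30 in the NASH model, against 3.03, 3.62 and 3.90 in the Control group. In Cd40 4 of 8 NASH model samples exceeded all Control samples, and the difference of 0.31 (interval 0.01 to 0.62) did not pass (limma adjusted p = 0.13), although it passed at 0.41 with values as deposited (adjusted p = 0.046) and at 0.50 with spike-in centring (0.043). Its ligand Cd40lg lay under the floor throughout, as did Cd70, Tnfsf4, Tnfsf8, Tnfsf9, Tnfsf18 and the receptor Tnfrsf8. The fall of Tnfsf18, the ligand GITRL, was such a case: it was called at adjusted p = 0.017 in limma, but all values were background (1.47 to 1.86 in the NASH model, 1.77 to 2.63 in the Control group), so no fold is given. The receptors Tnfrsf4 (OX40), Tnfrsf9 (4-1BB) and Tnfrsf18 (GITR) differed by 0.19, 0.18 and 0.02 and did not pass. Tnfrsf4 was under the floor in 3 of 8 NASH model and 7 of 8 Control samples, and Tnfrsf9 in 6 and 7. Differences of these 2 are therefore largely between background values.

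**Figure D3:**
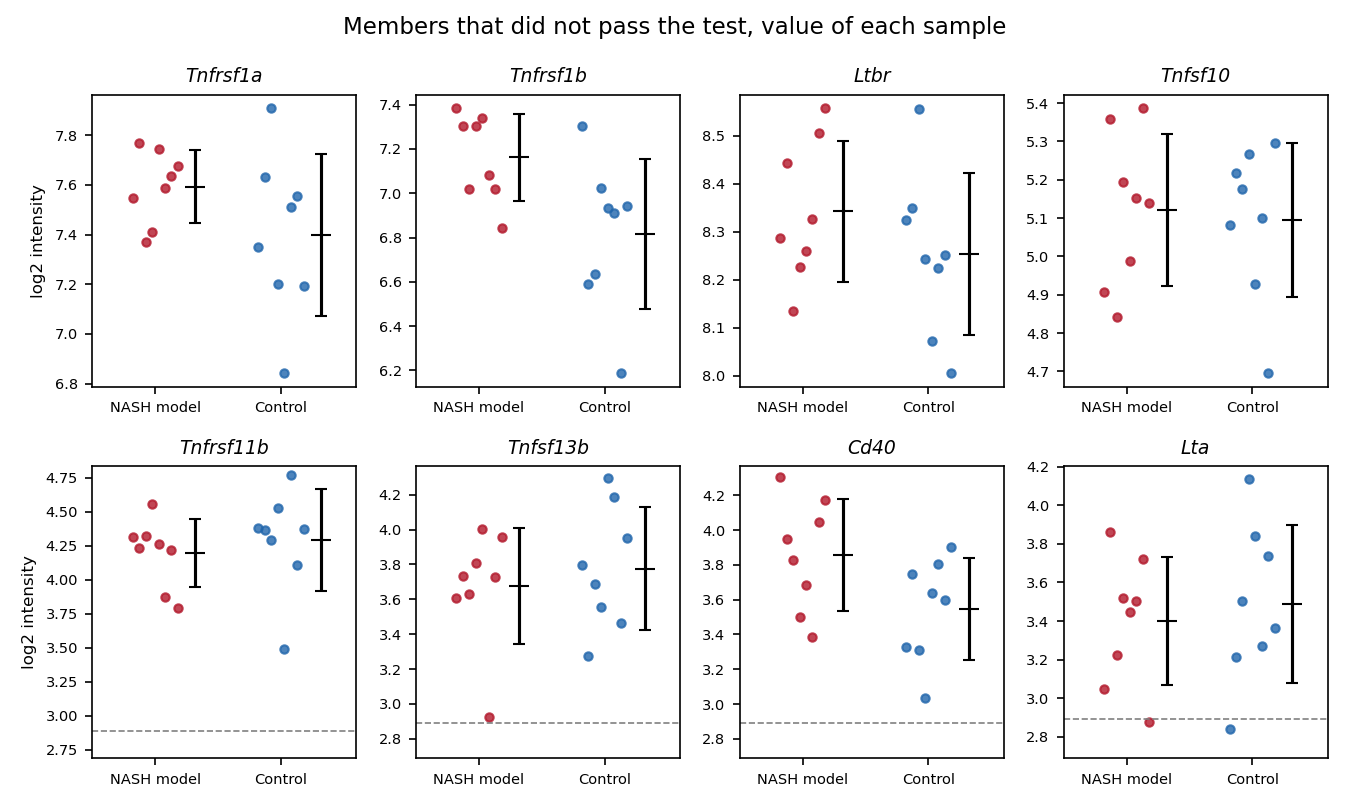
Log2 intensity of 8 members that did not pass the test, in each NASH model sample (red, left) and each Control sample (blue, right), with the mean and SD at the right of each group and the floor of 2.89 dashed where the axis reaches it. The groups overlap in all 8, the 3 receptors Tnfrsf1a, Tnfrsf1b and Ltbr and the ligands Tnfsf10 and Lta among them.

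The bone-regulating trio of RANK, its ligand and their decoy receptor showed no call. Tnfrsf11b, the decoy receptor osteoprotegerin, had 3.79, 4.25 and 4.56 in the NASH model, against 3.49, 4.37 and 4.77 in the Control group (difference -0.09, interval -0.41 to 0.22). Tnfrsf11a, RANK, differed by 0.35 (limma adjusted p = 0.15) and passed with values as deposited (0.49, adjusted p = 0.040) and with spike-in centring (0.59, 0.029), and Tnfsf11 was under the floor in all 16 samples. The orphan receptor Tnfrsf19, known as TROY, rose by 0.85 ± 0.25 SE (limma adjusted p = 0.016). Its values of 3.79, 4.55 and 5.01 in the NASH model overlapped those of 2.77, 3.72 and 4.88 in the Control group, where Control 4 was the highest; 8 of 8 NASH model and 7 of 8 Control samples were above the floor.

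Set side by side by known binding, 22 ligand and receptor pairs had both partners on the array, and none had both called. Called were 20% of ligands and 30.4% of receptors, and no test of a pair was made, so this lack is no result. In several pairs the ligand (Cd40lg, Fasl, Tnfsf4, Tnfsf8, Tnfsf9, Tnfsf11 or Tnfsf18) was under the floor in all 16 samples. The pair of Tnfsf12 and Tnfrsf12a could not be examined, since Tnfsf12 was not listed. Tnf rose while Tnfrsf1a and Tnfrsf1b did not pass, Ltb rose while Ltbr did not pass, and Tnfrsf10b and Tnfrsf13b rose while Tnfsf10 and Tnfsf13b did not pass. The neighbours Tnfsf9, Cd70 and Tnfsf14 on chromosome 17 differed by -0.03, -0.06 and 0.09. Tnfsf9 and Cd70 were under the floor in all 16 samples, so their differences are between background values.

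Marker RNAs of several cell types differed between the groups as well, and cell numbers were not measured. The counts below stand beside 13.2% of all genes called higher and 13.4% called lower. Recruited and lipid-associated macrophages had 8 measured markers, and all 8 rose, and their summed level ran from 12.0 to 12.6 in the NASH model and from 7.45 to 8.12 in the Control group. Of these 8, Mmp12 and Gpnmb were under the floor in 4 Control samples each, Ccr2 in 3, and Trem2 and Itgax in 2 each. All 5 were under it in 0 NASH model samples, and the other 3 markers were above it in all 16 samples. Of 7 Kupffer cell markers 4 fell and 1 rose (summed level 9.08 to 9.96 in the NASH model, 9.07 to 10.3 in the Control group). This sum is weighted most by Cd5l, the 1 that rose (0.65), with means of 8.79 in the NASH model and 8.14 in the Control group. Of 13 T and NK cell markers 4 rose and 1 fell (6.87 to 7.19 in the NASH model, 6.84 to 7.19 in the Control group), the fall being that of Cd4 (-1.66), with the killing protein Prf1 under the floor in all 16 samples. Of 8 stellate cell and myofibroblast markers 6 rose (9.66 to 10.4 in the NASH model, 8.44 to 8.88 in the Control group), of 5 cholangiocyte markers 3 rose (6.35 to 8.55 in the NASH model, 6.63 to 7.45 in the Control group), and of 7 endothelial markers 5 fell and 1 rose (9.11 to 9.59 in the NASH model, 9.57 to 9.99 in the Control group). Of 5 neutrophil markers 2 rose and of 6 dendritic cell markers 1 did. Several called markers of these lists were dim. In the Control group Flt3 was under the floor in 8 of 8 samples and Cd8a, S100a8 and Cldn4 in 7 each. Cd3e was under it in 3 Control samples and Cd8b1 in 1. In the NASH model Timd4 was under it in 5 samples, Cd163 and Flt3 in 3 each, Cldn4 in 2 and Cd8a in 1. The part of all these cell types in the rises of Tnf, Ltb, Tnfrsf12a and the other members was not tested.

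Of 61 measured genes on the pathway lists, 27 rose and 3 fell, 49.2% in all beside 26.6% of all genes. The share higher was 44.3% and the share lower 4.92%, beside 13.2% and 13.4% of all genes. Shedding genes and further superfamily members are included, so not all 61 act downstream of the receptors. The lists were chosen with earlier results of these data known, and 50 of the 61 genes were above the floor in all 16 samples. The excess over all genes, dim ones included, is therefore no test of the pathway. The median difference of the 61 genes was 0.38. The shedding machinery rose in 5 of 5 genes, with a median difference of 0.62. Adam17, the protease that releases TNF and its receptors from the membrane, had 6.27, 6.44 and 6.53 (lowest, median and highest) in the NASH model, against 5.65, 5.80 and 6.00 in the Control group, and rose by 0.62 ± 0.08 SE (limma adjusted p = 6.9e-06). The groups of Adam17 did not overlap. Rhbdf1, an iRhom protein needed for the maturation of Adam17, rose by 1.01, and so did Timp3, which inhibits Adam17, by 1.23.

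Adaptors and ubiquitin ligases gave 2 rises among 13 genes (15.4%, close to the 13.2% of all genes called higher), with a median difference of 0.00. The rises were those of the inhibitor of apoptosis ligases Birc3 (0.59) and Birc2 (0.45). Kinases and NF-kB subunits rose in 5 of 10 (50%, beside 13.2% of all genes) and fell in 1. The fall was that of the adaptor of TAK1 encoded by Tab2 (-0.48, named after its values were seen). The 5 rises were those of Nfkb2, the precursor of the p52 subunit, by 1.27 ± 0.15 SE (limma adjusted p = 2.9e-06), the kinase Map3k14, also called NIK, by 1.0 ± 0.24 SE (0.0035), the subunit Relb by 0.76 ± 0.12 SE (7.5e-05), and, named after their values were seen, the kinase adaptor Tab1 by 0.45 and the subunit Rel by 0.38. Relb was above the floor in 8 of 8 NASH model and 2 of 8 Control samples. Nfkb2 had 4.61, 5.06 and 5.51 in the NASH model, against 3.17, 3.79 and 4.30 in the Control group, with no overlap. Feedback inhibitors rose in 4 of 9 (44.4%) and fell in 1, the deubiquitinase Otulin (-0.37, also named after its values were seen). Tnfaip3 (A20), an enzyme that ends TNF receptor signals, rose by 2.18, its partner Tnip1 by 0.82 and Nfkbia, the inhibitor of NF-kB, by 0.47.

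Of 5 death effector genes 2 rose (40%, beside 13.2% of all genes) and 1 fell (20%, beside 13.4%). Mlkl, the pore-forming executor of necroptosis, had 6.57, 6.92 and 7.11 in the NASH model, against 4.72, 5.66 and 6.04 in the Control group. It rose 2.49-fold (1.31 ± 0.15 SE, limma adjusted p = 1.8e-06), with the groups fully apart. Ripk3, the kinase that activates it, rose by 0.70 ± 0.19 SE (0.0082), with overlap and with 8 of 8 NASH model and 4 of 8 Control samples above the floor. Casp8, the protease that death receptors activate and that restrains necroptosis, fell by 0.29 (SE 0.08, adjusted p = 0.011), a call that among the scalings was lost with spike-in centring (-0.23, adjusted p = 0.11).

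Known target genes of TNF rose in 8 of 14 (57.1%, beside 13.2% of all genes) and fell in 0, with a median difference of 0.76. Some are named here after their values were seen. Tnfaip6, among the 8 rises, was above the floor in 1 of 8 NASH model and 0 of 8 Control samples. Cxcl2, another of the 8, was above it in 8 of 8 NASH model and 5 of 8 Control samples. Cxcl1 (0.42), Sod2 (-0.01), Saa3 (-0.21) and Ccl20 (-0.31) did not pass, and Il6 was under the floor in all 16 samples. The chemokine Cxcl10 rose by 1.53 ± 0.15 SE, Ccl2 by 1.53 ± 0.15 SE and the adhesion molecule Vcam1 by 1.53 ± 0.19 SE, all with groups that did not overlap. These genes respond to other signals too, so their rise is not a measure of TNF. Lcn2, named after its values were seen, had a difference of 2.02 that did not pass (limma adjusted p = 0.063), since its Control values ran from 5.54 to 11.9 while those of the NASH model ran from 11.1 to 11.6. Among 5 superfamily genes with other symbols, 1 rose (20%, beside 13.2% of all genes), Eda2r, a receptor for an ectodysplasin isoform. Eda2r had 3.61, 4.08 and 4.65 in the NASH model, against 1.86, 2.93 and 3.48 in the Control group (difference 1.33 ± 0.19 SE, limma adjusted p = 2.9e-05). The floor was passed by 8 of 8 NASH model and 4 of 8 Control samples of Eda2r.

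**Figure D4:**
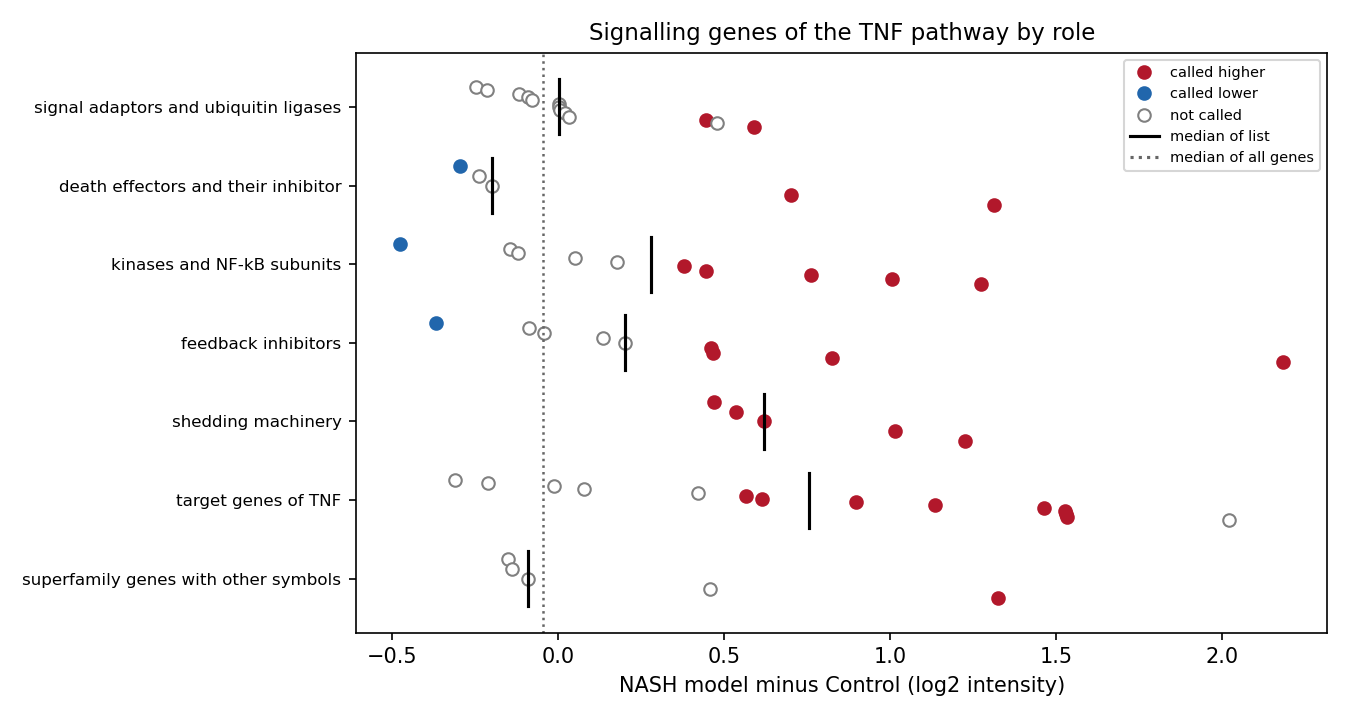
Difference between 8 NASH model and 8 Control samples (log2 intensity, x axis) of each measured pathway gene, by list, with each list's median as a black bar and the median of all genes (-0.04) dotted. Red points were called higher, blue lower and open points did not pass; all 5 shedding genes are red, and Tnfaip3 (2.18) lies farthest to the right among the called genes.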

How the data were processed

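Log2 intensities per probe set were deposited by the authors for 29129 probe sets in 16 samples; the software and normalization behind these log2 values are not given in the sources used here. RNA was isolated with TRIzol and biotin-labelled, per the labels' protocols. The platform annotation gave 19572 probe sets a symbol. Since column medians ran from 3.52 to 3.66, arrays were quantile normalized, which moved no value by more than 0.16. The brightest probe set by mean stood for each of 19505 genes. Groups were compared with limma 3.58.1 in R 4.3.3 (lmFit, eBayes, two-sided), group being the only term, with Benjamini-Hochberg adjustment over all genes and dim genes kept; the fit was tested on simulated data. For Tnf the fold bound sets the NASH model mean against Control values raised to the floor of 2.89.

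The members and lists were chosen with earlier results of these data known. Values by group are given for called members without overlap and for 15 symbols fixed by name (Tnfsf12 was not listed), and for further members added after the values were seen. Each pathway list is described by up to 3 called genes with the largest differences. No label ties a sample to an animal of its own, and p-values then cover only the spread among the samples, which may be technical. NASH model 1a and 1b differed about as other NASH model pairs did (SD of gene-wise differences 0.387, others 0.340 to 0.466) and were both kept. The number of arrays limits the precision. Alternatives were 4 other scalings, a filter on the dimmest 40% of genes, averaged probe sets, other eBayes options, array weights, 1a and 1b averaged, samples left out, an exact permutation test, and a replicate block.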

Additional observations from a re-analysis of the deposited data

Results flagged for a closer look

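In each of 76 groups of 8 samples (38 members in 2 groups) the most extreme sample was compared with its nearest neighbour by Dixon's criterion, which chance alone meets in about 1 in 20 groups. It was met in 6. Tnfrsf23 was 4.24 in Control 4, against 2.88 or less in the other Control samples. Tnfsf11 was also highest among Control samples in Control 4, at 2.41, which lies below the floor. Tnfrsf4 was 3.60 in Control 6, against 2.85 or less, and Tnfsf15 was 4.21 in Control 5, against 3.22 or less. In the other direction, Tnfsf13b was 2.93 in NASH model 5, against 3.61 or more in the other NASH model samples, and Tnfrsf17 was 1.99 in NASH model 6, below the floor like the rest of its group. Only for Tnfrsf23 did leaving out that sample change a call among these 6.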

How the results depend on the processing

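The calls of Tnf, Ltb, Tnfrsf12a, Tnfrsf13b and Tnfrsf26 held under each alternative that tested them, and no called member changed sign. The other 5 calls were each lost under at least 1. The dim filter left 20 members, of which 5 were higher and 1 lower, since it left Tnf, Ltb, Tnfrsf10b, Tnfrsf13b and Tnfsf18 untested and called Tnfrsf1b. The 2 members lower became 1 with values as deposited, with cyclic loess and without NASH model 2 and 7, and 0 with spike-in centring, and ran from 1 to 3 with each sample left out. The 8 members higher ran from 8 to 9 with each sample left out. Spike-in centring moved the median difference of all genes by 0.10, which bears on Fas and Casp8; calls higher made up 73.7% of all calls under it and 39.2% with median centring, against 49.6% here. The 3 pathway genes lower became 5 with median centring and 1 with spike-in centring, and ran from 3 to 5 with each sample left out. The 4 feedback inhibitors higher became 5 with each of the 4 other scalings and with the dim filter. They became 3 with 1a and 1b averaged and with the replicate block, and ran from 3 to 4 with each sample left out. No label states whether the numbers pair the samples. Deviations of same-numbered samples correlated between -0.02 and 0.06, which shows no sign of pairing but cannot exclude it. Over the 13 samples whose number occurs in both groups, the replicate block gave 7 members higher and 2 lower, against 6 and 3 without it, and 1 pathway gene lower. Among the named genes the calls of Tnfrsf19 (0.90, adjusted p = 0.054), Tnfrsf21 (0.51, 0.075), Tnfsf18 (-0.43, 0.051), Birc2 (0.053) and Casp8 (-0.30, 0.091) were lost with the block in limma. Array signal over background limits the ligands, of which 8 of 15 lay under the floor in all samples. The causes of these changes were not tested, apart from the genes the dim filter leaves out.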
